A study of Mus musculus with 2 samples.

Results

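Colon tumour cells that carried transcripts of Notum were singled out in 2 single-cell RNA libraries and described gene by gene. A barcode was taken as a Notum cell if it had 5000 or more UMIs (unique molecular identifiers, each standing for 1 captured RNA molecule) with at most 25% of them mitochondrial, 1 or more Epcam UMIs and 3 or more Notum UMIs. It also had to have fewer than 10 Cadps UMIs, under 0.03% of its UMIs from the cell cycle genes Top2a, Mki67, Birc5 and Ube2c, and under 1% from the secretory genes Lyz1, Ang4, Defa17 and Defa24. This gave 2353 Notum cells of the 11166 barcodes past the UMI and mitochondrial limits, 1193 of 5385 in the KO library and 1160 of 5781 in the WT library. Both libraries came from digested colon tumours of mice given AOM/DSS, the carcinogen azoxymethane followed by the colitis-inducing dextran sulfate sodium. The KO library is labelled Gsk3b IEC-/- and the WT library Gsk3b IEC+/+, which by the series title stands for loss or presence of Gsk3b in the intestinal epithelium. There is 1 library per genotype, so no test between genotypes was run, no difference between them has a replicate check, and genotype, animal, tumour and library cannot be told apart. The number of animals, their age, and what drives the deletion are not stated in the labels used here.

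Notum encodes a secreted carboxylesterase that strips the palmitoleate group from Wnt proteins, which keeps them from engaging Frizzled receptors. Its transcription is switched on by β-catenin with TCF factors, so cells with strong Wnt signalling make an inhibitor of the Wnt ligands around them. In the mouse intestine, Notum is known from Apc-mutant cells, which secrete it and so lower Wnt signalling in neighbouring wild-type stem cells. GSK3β, the product of Gsk3b, is a kinase of the destruction complex that marks β-catenin for degradation, and its paralog GSK3α shares this role.

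Nkd1, Lgr5 and Axin2 are established Wnt targets, and the promoters of the marker genes, of the genes that stood highest in Notum cells and of a few Wnt pathway genes were searched for the TCF/LEF core motif. Of the 25 genes looked up, 17 had a window in the RefSeq promoter table (GRCm38.p6, 250 bases before to 50 after the start site), and 3 of these held CTTTGAA or CTTTGAT on either strand. Counted by window, 5 of the 23 windows of these genes held a match. Of all 32851 windows in the table, 8.65% held 1 of these motifs, which cannot overlap at the same start. The windows of Spock2, a gene for an extracellular proteoglycan (chr10:60106007-60106306, plus strand), and Sp5, a gene for a zinc finger factor of Wnt-responsive cells (chr2:70474673-70474972, plus strand), are shown because both genes stood high in Notum cells. The capitals mark the motif, whose first base is at −133 from the start site in Spock2 and at −104 in Sp5.
Spock2: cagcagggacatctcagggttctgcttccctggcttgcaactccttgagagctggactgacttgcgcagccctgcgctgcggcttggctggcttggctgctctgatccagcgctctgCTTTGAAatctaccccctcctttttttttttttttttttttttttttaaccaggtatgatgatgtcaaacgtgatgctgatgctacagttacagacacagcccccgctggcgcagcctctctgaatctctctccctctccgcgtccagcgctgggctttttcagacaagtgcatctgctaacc
Sp5: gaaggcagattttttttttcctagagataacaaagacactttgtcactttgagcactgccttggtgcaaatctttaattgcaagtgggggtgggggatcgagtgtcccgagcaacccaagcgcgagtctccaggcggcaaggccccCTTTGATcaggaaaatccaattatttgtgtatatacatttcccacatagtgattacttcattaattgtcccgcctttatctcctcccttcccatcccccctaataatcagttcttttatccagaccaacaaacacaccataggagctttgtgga
The third gene was Sox6, with the motif in 3 of its 6 windows. A match is a description of letters, and its absence elsewhere says nothing of binding.

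Gsk3b itself was read at nearly the same level in both libraries. Notum cells held 9471 Gsk3b UMIs in the KO library and 10145 in the WT library, which is 288 and 298 CPM (UMIs of the gene per 1e6 UMIs of these cells). The log2 ratio of KO over WT was −0.047, with a 95% interval of −0.088 to −0.0067. All intervals given for ratios and shares are exact and cover counting error only. UMIs of this chemistry mark the 3′ end of transcripts, the labels do not state which part of Gsk3b was deleted, and a tag outside that part checks nothing about the deletion. Gsk3a was at 44.7 CPM in KO and 43.9 CPM in WT Notum cells.

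The marker genes were detected far more often in Notum cells than in other epithelium, in both libraries. The markers were chosen with earlier results of these data known, so their detection is a description and no independent support. Some of them, such as Prox1 and Lgr5, are also members of the gene lists described below. Each barcode was thinned to 5000 UMIs so that detection could be set side by side at equal depth, and leukocyte barcodes, with more UMIs of 6 leukocyte genes than of 6 epithelial genes, served to show how often free RNA alone gives a UMI. Nkd1, which encodes a Dishevelled-binding Wnt inhibitor, was detected in 91.1% of KO and 87.3% of WT Notum cells. The corresponding shares of Notum-negative epithelium were 20.5% in KO and 26.3% in WT, and those of leukocyte barcodes 13.7% and 15.2%. Notum-negative epithelium means the same limits with Notum at 0 UMIs and more epithelial than leukocyte UMIs, 1572 KO and 1053 WT barcodes. Prox1, a homeobox gene known as a Wnt target of colon tumours, was detected in 76.1% of KO and 72.2% of WT Notum cells and in 16.5% and 20.7% of Notum-negative epithelium. Spock2 was detected in 74.4% and 66.9% of Notum cells, against 14.7% and 16.9% of Notum-negative epithelium. Both genes were detected in 8.70 to 11.8% of these leukocyte barcodes, below every share given for Notum cells and Notum-negative epithelium. This did not hold for Spock2 in KO with a narrower set, the leukocyte barcodes without an Epcam UMI. There Spock2 was detected in 14.97% of KO barcodes, against 14.7% of KO Notum-negative epithelium. Spock2 in WT and Prox1 in both libraries stayed below Notum-negative epithelium with the narrower set too. Notum itself, at 1 or more UMIs after thinning, was detected in 6.27% of KO and 4.66% of WT leukocyte barcodes.

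Lgr5, the R-spondin receptor gene that marks intestinal stem cells, was detected in 68.6% of KO Notum cells (interval 65.8 to 71.2) and 54.2% of WT Notum cells (51.3 to 57.1). Its shares were 21.2% and 23.7% of Notum-negative epithelium and 9.26% and 5.90% of leukocyte barcodes. Clstn2, a calsyntenin gene best known from synapses, was in 47.7% of KO and 21.7% of WT Notum cells. It was in 12.6% and 7.31% of Notum-negative epithelium and in 5.78% and 2.67% of leukocyte barcodes. Of the 5 markers other than Notum, 3 or more were found in 84.2% of KO and 69.5% of WT Notum cells, in 9.10% and 11.7% of Notum-negative epithelium and in 1.79% and 1.31% of leukocyte barcodes. Clstn2 was the marker found least often in the WT library, where most Notum cells had no Clstn2 UMI even at full depth (43.3% had 1 or more, against 72.2% in KO). Summed over the 6 leukocyte genes, Notum cells held 353 CPM in KO and 393 CPM in WT, while leukocyte barcodes held 7635 and 8298 CPM. Their median depth was 22113 UMIs in KO and 23714 in WT, with 19087 and 19794 in Notum-negative epithelium and 8248 and 8027 in leukocyte barcodes.

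**Figure D1:**
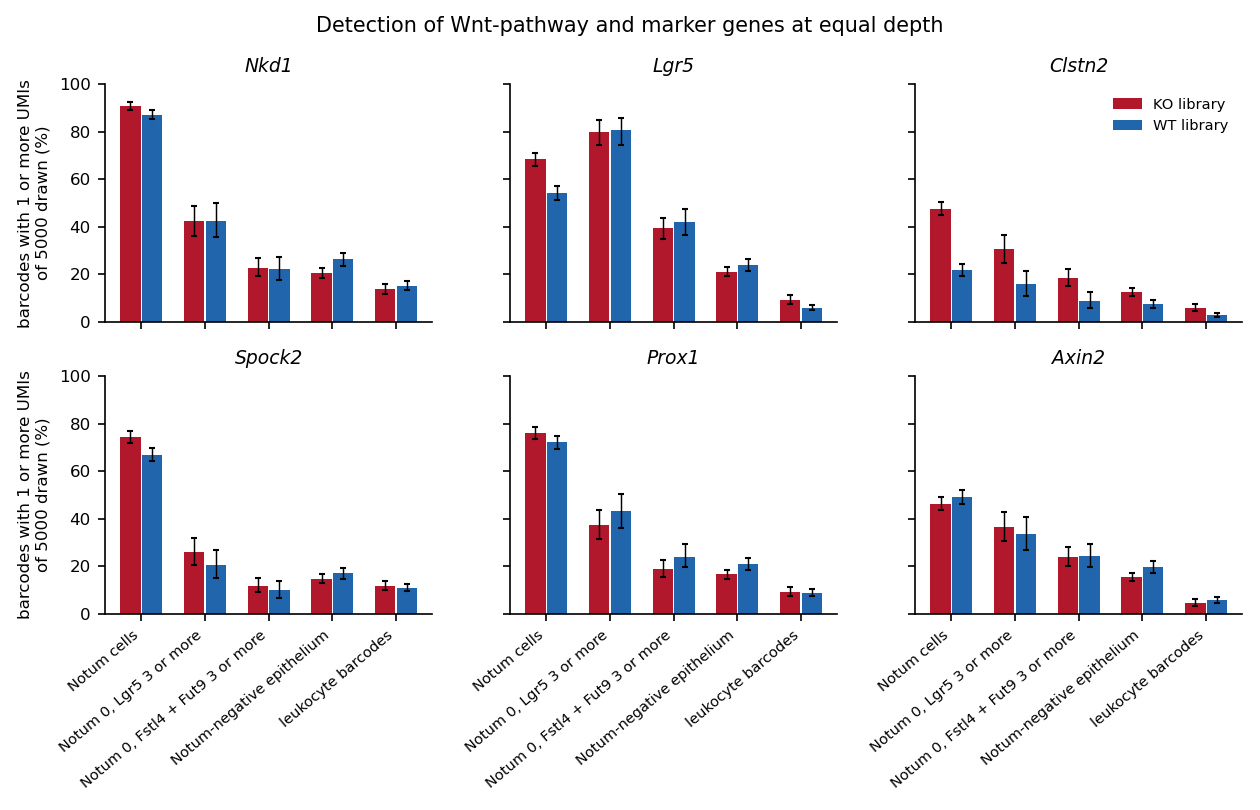
Share of barcodes (y axis, %) with 1 or more UMIs of each gene after thinning to 5000 UMIs, by group of barcodes (x axis), in the KO (red) and WT (blue) library; bars show the share and whiskers its exact 95% interval. Nkd1, Spock2 and Prox1 are detected in 66.9 to 91.1% of Notum cells in either library and in at most 43.1% of any other group drawn, while Lgr5 is detected more often in the Notum-negative cells picked for Lgr5.

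Notum cells made up similar shares of the eligible barcodes, meaning all that met the limits apart from Notum. They were 1193 of 4274 eligible KO barcodes (27.9%, interval 26.6 to 29.3) and 1160 of 4308 eligible WT barcodes (26.9%, interval 25.6 to 28.3). The direction of this small difference turned with the limits: with a Notum minimum of 2 UMIs the shares were 34.8% in KO and 36.4% in WT, and with a minimum of 5 UMIs they were 17.1% and 14.7%. At equal depth, with 5000 UMIs drawn per barcode and 1 Notum UMI required, they were 27.4% and 26.2%. Eligible barcodes were not required to hold more epithelial than leukocyte UMIs. With that required, Notum cells were 1191 of 3549 KO barcodes (33.6%, interval 32.0 to 35.1). In WT they were then 1155 of 3132 barcodes (36.9%, interval 35.2 to 38.6), so the share was higher in WT. The Cadps limit left out 44 KO and 258 WT barcodes with 3 or more Notum UMIs. The libraries shared 6 barcode sequences among those past the UMI and mitochondrial limits and none among Notum cells.

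The Notum count itself chose the cells and is given as a description. It ran from 3 to 59 UMIs per cell in KO and from 3 to 62 in WT, with a median of 5 in both. Just inside the limit, 245 KO and 294 WT cells had exactly 3 Notum UMIs, and just outside it 294 KO and 408 WT barcodes had exactly 2. The marker genes Nkd1, Spock2, Prox1 and Lgr5 stood higher at each step of the Notum count in both libraries. Clstn2 did so in KO but not in WT, where it stood at 90.8, 102 and 96.0 CPM in the last 3 bins. In barcodes with 0, 1 to 2, 3 to 4, 5 to 9 and 10 or more Notum UMIs, Nkd1 stood at 57.4, 243, 536, 610 and 758 CPM in KO and at 84.8, 264, 459, 553 and 689 CPM in WT. Spock2 stood at 40.8, 160, 398, 573 and 814 CPM in KO and at 48.9, 169, 354, 457 and 746 CPM in WT. Lgr5 levelled off in WT, with 205, 237 and 238 CPM in the last 3 bins, against 296, 337 and 386 CPM in KO. Barcodes with 10 or more Notum UMIs were deeper, with a median of 30346 UMIs in KO (247 cells) and 40040 in WT (152 cells). Barcodes with 1 or 2 Notum UMIs, left out of both groups, thus lay between them for Nkd1, Spock2 and Lgr5.

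Against Notum-negative epithelium, Notum cells carried more RNA of Wnt feedback genes, of lipase-related and metallothionein genes and of several secreted factors, and less RNA of goblet and absorptive genes. Of 15877 genes with 20 or more UMIs in both libraries, 1251 (7.88%) were over 2-fold higher in both libraries and 1385 (8.72%) over 2-fold lower in both. Only 20 genes were over 2-fold apart in opposite directions. The cells were chosen by a gene of the same libraries, so these counts describe the contrast and were not tested. The median log2 ratio over all genes was 0.18 in KO and 0.12 in WT, and ratios are read against it. Median-of-ratios scaling would move every ratio by −0.18 in KO and −0.12 in WT.

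The genes that ranked highest by the rule for named genes, after Notum, were Pnliprp2, Mt4, Spock2, Pnliprp1 and Mt3. Pnliprp2, which encodes a pancreatic lipase-related protein, had 332 CPM in KO and 440.1 CPM in WT Notum cells, against 23.5 and 36.5 CPM in Notum-negative epithelium. Its log2 ratio was 3.82 in KO (3.72 to 3.93) and 3.59 in WT (3.49 to 3.69). Pnliprp1, its paralog, lies 15.6 kb away on chromosome 19 with no gene between them, and had log2 ratios of 3.39 and 3.30. Mt4 and Mt3, metallothionein genes 13.6 kb apart on chromosome 8, had log2 ratios of 3.74 and 3.52 in KO and 3.42 and 3.18 in WT. These 2 neighbouring pairs supplied 4 of the 5 leading genes after Notum. Pycr1, which encodes an enzyme of proline synthesis, lies 10.0 kb from Notum (chr11:120653788-120661175, minus strand, GRCm38) with 2 genes between them, and was at 51.0 CPM in KO and 71.3 CPM in WT Notum cells, against 6.50 and 10.1 CPM.

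Ptn, the gene of the heparin-binding growth factor pleiotrophin, had 349 CPM in KO and 627 CPM in WT Notum cells, against 27.1 and 92.8 CPM in Notum-negative epithelium. Mdga2, which encodes a GPI-anchored adhesion protein known from synapses, had 634 and 582 CPM against 53.2 and 81.3 CPM. Cfi, the gene of complement factor I, had 68.2 and 60.5 CPM against 6.26 and 8.13 CPM. Adam12, a metalloprotease gene, Pdgfrl, a gene of a PDGF receptor-like protein, Sbspon, Col23a1, a transmembrane collagen gene, and Tesc, the gene of the calcium-binding protein tescalcin, had log2 ratios of 2.72 to 3.33 in either library. Tex15, known from male germ cells, was at 42.3 CPM in KO and 59.9 CPM in WT Notum cells, against 4.04 and 7.23 CPM. All 20 leading genes, Notum by construction, were also over 2-fold higher in both libraries when the comparison cells were limited to those with Lgr5, to those with Fstl4 or Fut9, or to those with 0.4% or more epithelial UMIs. The genes were picked for high ratios over Notum-negative epithelium, and these narrower groups are parts of it, so this is a description and no independent check. Over all genes, 8.16% were higher and 4.64% lower than in the cells with Fstl4 or Fut9, and 9.55% higher and 6.32% lower than in the cells with 0.4% or more epithelial UMIs.

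**Figure D2:**
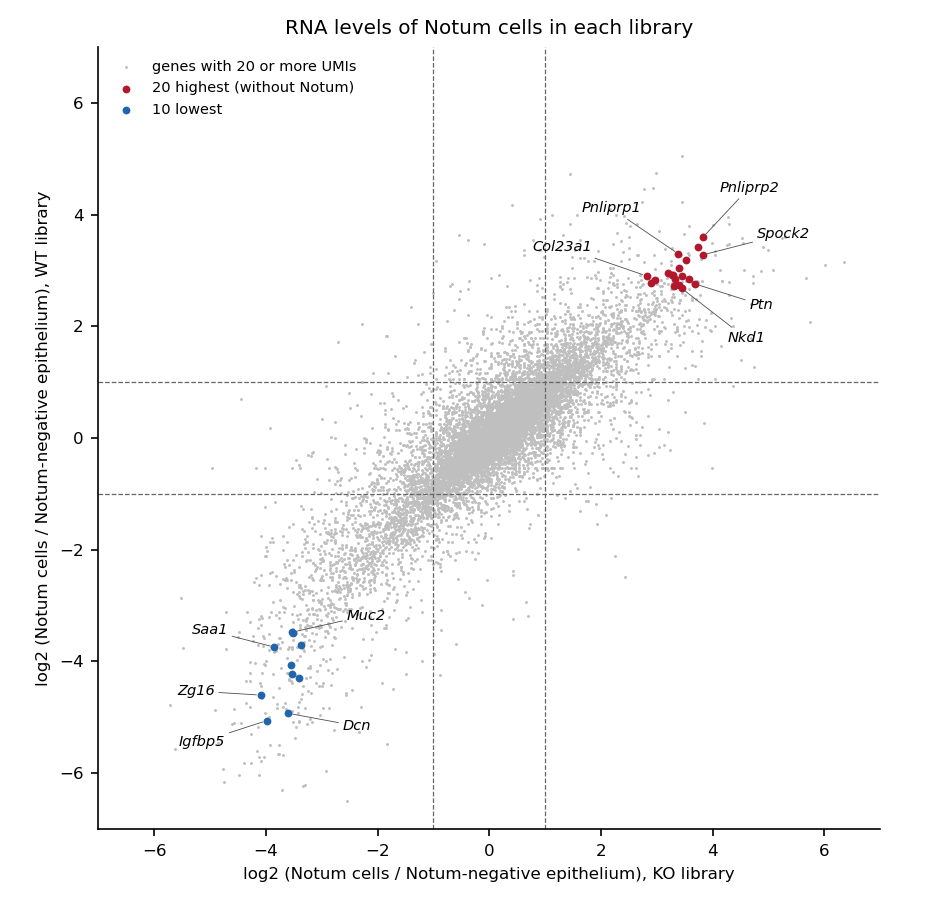
log2 ratio of Notum cells over Notum-negative epithelium for each gene with 20 or more UMIs, in the KO library (x axis) and in the WT library (y axis); dashed lines mark 2-fold, red points the highest-ranking genes without Notum, blue points the 10 lowest. The libraries share the direction for 2636 genes past 2-fold in both and oppose each other for 20.

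Within the Wnt pathway, many extracellular and feedback inhibitors were higher. Leaving out Notum, whose levels the rule fixed, 8 of 16 inhibitors tested were over 2-fold higher in both libraries and 4 lower, with a median log2 ratio of 1.63 in KO and 1.27 in WT. Wif1, a secreted binder of Wnt proteins, had 482 CPM in KO and 474 CPM in WT Notum cells, against 45.7 and 71.1 CPM in Notum-negative epithelium. Znrf3, a ubiquitin ligase gene that lowers Frizzled levels, had 284 and 322 CPM against 69.6 and 108 CPM, and its paralog Rnf43 had log2 ratios of 1.44 and 0.97. Apcdd1, a membrane-bound Wnt inhibitor gene, had log2 ratios of 3.21 and 2.95, and Axin2, a scaffold gene of the destruction complex and a direct Wnt target, 2.02 and 1.59. Dkk2, Dkk3 and Shisa2 completed the raised inhibitors. The 4 lower members were Frzb, Sfrp1, Sfrp2 and Kremen2. Sfrp1 and Sfrp2 are known from stroma, and with comparison cells of 0.4% or more epithelial UMIs, 2 members were lower.

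Among the factors that act on DNA, the pattern was split. Of 16 Wnt effectors, 6 were higher (Prox1, Sox4, Lef1, Sp5, Tbx3 and Tcf7) and 3 lower (Cdx1, Cdx2 and Tcf7l1). Lef1, a partner of β-catenin on DNA, had 99.9 CPM in KO and 123 CPM in WT Notum cells, against 13.4 and 26.3 CPM. Sp5 had 72.1 and 99.5 CPM against 11.2 and 20.04 CPM. The cell growth targets Myc and Ccnd1 stayed within 2-fold, with log2 ratios of 0.033 to 0.41. Cdx2, the homeobox gene that maintains intestinal identity, had 3.56 CPM in KO and 3.73 CPM in WT Notum cells, against 23.5 and 17.5 CPM in Notum-negative epithelium, and its relative Cdx1 had log2 ratios of −1.59 and −1.44.

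Ligand genes were higher in part. Of 16 ligand and secretion genes, 7 were higher and 2 lower. Wnt6 had 144 CPM in KO and 142 CPM in WT Notum cells, against 13.4 and 21.998 CPM, and Wnt10a had 89.6 and 81.9 CPM against 11.8 and 15.2 CPM. The other 5 higher ligands, among them Wnt5b and Wnt11, were below 12 CPM in Notum cells. Of 19 receptor genes, 4 were higher (Lgr5, Ptk7, Fzd3 and Fzd10) and 2 lower (Fzd1 and Fzd5). Over all genes, 7.88% were higher and 8.72% lower. With comparison cells of 0.4% or more epithelial UMIs, 7 ligand and secretion genes were higher and none lower. Of the receptor genes, 5 were higher and 1 lower there. Against Notum-negative cells with Lgr5, 1 receptor gene was higher and 1 lower, and 4 ligand and secretion genes were higher and 1 lower. None of the 12 destruction complex and Dishevelled genes passed 2-fold in either direction. Ctnnb1, the β-catenin gene, had 499.7 CPM in KO and 567 CPM in WT Notum cells, against 323 and 381 CPM, with log2 ratios of 0.63 and 0.57, and Apc had log2 ratios of 0.50 and 0.30.

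Stem cell genes were higher in part. Over Notum-negative epithelium, 6 of 19 stem cell genes were higher (Lgr5, Smoc2, Tnfrsf19, Mex3a, Msi1 and Tert) and none lower. Lgr5 had 335 CPM in KO and 225 CPM in WT Notum cells, against 81.4 and 84.7 CPM. Smoc2, which encodes a matrix protein of crypt base cells, had 360.5 and 231 CPM against 75.3 and 84.6 CPM. Ascl2, Ephb2, Cd44 and Sox9, further genes of crypt base cells, were within 2-fold in both libraries. Olfm4 was near 0, with at most 0.470 CPM in Notum cells of either library.

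Set against the 252 KO and 197 WT Notum-negative cells with 3 or more Lgr5 UMIs, Notum cells had 534 genes (3.62%) over 2-fold higher and 348 genes (2.36%) over 2-fold lower in both libraries. Lgr5 itself had log2 ratios of −0.21 in KO and −0.86 in WT there, where the comparison cells were picked for it. Of the 16 inhibitors without Notum, 4 were higher and 2 lower there, of the stem cell list 1 was higher and 3 lower, and of 14 absorptive genes 1 was higher and 2 lower. Nkd1 had log2 ratios of 2.18 in KO and 1.74 in WT, Wif1 2.14 and 1.76, and Wnt6 2.42 and 2.15. Msi1, which encodes an RNA-binding protein, was the 1 higher stem cell gene, with log2 ratios of 1.77 and 2.002. Axin2, in contrast, had 0.62 in both libraries and Znrf3 0.87 and 0.57, under 2-fold. Slc12a2, Cdca7 and Lrig1, which are known from crypt base and progenitor cells, were the lower ones, with log2 ratios of −1.76 to −1.11.

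**Figure D3:**
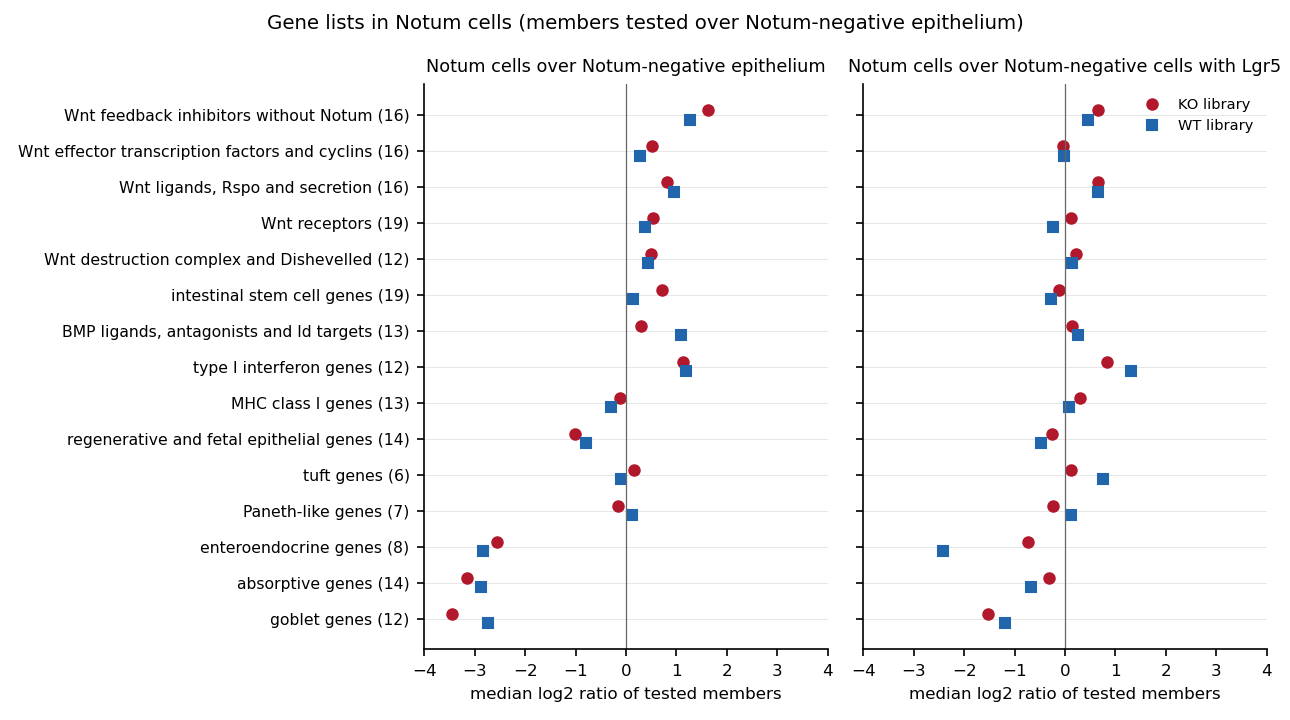
Median log2 ratio (x axis) of the tested members of each gene list (y axis, number of members in parentheses) in Notum cells over Notum-negative epithelium (left) and over Notum-negative cells with 3 or more Lgr5 UMIs (right), circles for the KO and squares for the WT library. Wnt inhibitors, drawn without Notum, lie at 1.63 and 1.27 in the left panel and goblet genes at −3.45 and −2.73. The Paneth-like list holds Lyz1, Ang4, Defa17 and Defa24, which the rule limits in both groups.

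Goblet, absorptive and enteroendocrine genes were mostly lower in Notum cells, while tuft genes were not. All 12 goblet genes were over 2-fold lower in both libraries, with a median log2 ratio of −3.45 in KO and −2.73 in WT. Zg16, which encodes a mucus lectin, had 164 CPM in KO and 11.1 CPM in WT Notum cells, against 2809 and 269.5 CPM in Notum-negative epithelium. Muc2, the gel-forming mucin gene, had 118 and 42.8 CPM against 1354 and 476 CPM. After thinning, Zg16 was detected in 37.0% of KO and 5.09% of WT Notum cells and in 43.8% and 4.54% of leukocyte barcodes, and Muc2 in 27.8% and 10.5% against 30.5% and 12.2%. The shares for these 2 genes were thus at or near those of cells that should lack them, and no expression is read from them. Single cells held far more, with up to 1573 Zg16 UMIs in 1 KO cell and up to 264 Muc2 UMIs in 1 WT cell.

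Absorptive genes were lower for 12 of 14 members, including Lypd8, Muc3, Krt20 and Saa1, but 2 of 14 were lower than in Notum-negative cells with Lgr5, with medians of −0.32 in KO and −0.67 in WT there. Lypd8, which encodes a surface protein that keeps bacteria off the mucosa, had 831 CPM in KO and 900.0 CPM in WT Notum cells, against 6666 and 8617 CPM in Notum-negative epithelium. The 1 higher member was Slc9a3, a sodium-proton exchanger gene, with 62.3 and 115 CPM against 8.72 and 26.6 CPM. Of 8 enteroendocrine genes 6 were lower. Of 6 tuft genes 1 was higher and 1 lower (medians 0.15 in KO and −0.091 in WT). Of 7 Paneth-like genes 1 was lower and none higher (medians −0.15 and 0.12). The rule limits UMIs of Lyz1, Ang4, Defa17 and Defa24 in Notum cells and comparison cells alike, so nothing is read from the Paneth-like list. None of the 18 cell cycle genes passed 2-fold, but the rule for Notum cells and comparison cells alike limits cycling UMIs, so nothing is read from this.

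The 10 lowest genes by the rule were Zg16, Igfbp5, Saa1, Dcn, Sparc, Igfbp7, Muc2, Gsdmc4, Sycn and Klk1. Igfbp5, Dcn, Sparc and Igfbp7 are genes of fibroblasts and vessels, and the Notum-negative epithelium of the KO library held 597 CPM of 6 fibroblast markers, of the WT library 123 CPM, against 62.0 and 4.38 CPM in Notum cells. When comparison cells needed 0.4% or more epithelial UMIs, their fibroblast markers were at 45.4 and 4.46 CPM, and 6 of the 10 genes were still over 2-fold lower in both libraries. Dcn had log2 ratios of −3.60 in KO and −4.93 in WT with the wider comparison cells and of 0.074 and 0.14 with the stricter ones. Zg16 (−4.18 and −4.66 with the stricter cells), Saa1, Muc2, Gsdmc4, Sycn and Klk1 were the 6. Against Notum-negative cells with Lgr5, 2 of the 10 were over 2-fold lower in both libraries, and Zg16 had log2 ratios of −2.00 in KO and 0.096 in WT. The fibroblast, vessel and plasma cell genes are therefore not described as low in Notum cells.

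Several further groups moved in part. Of 12 type I interferon genes, 6 were higher (Ifit1, Isg15, Ifit2, Rsad2, Usp18 and Cmpk2) and 2 lower (Irf7 and Oasl2). Isg15, a ubiquitin-like antiviral modifier gene, had 280.0 CPM in KO and 252 CPM in WT Notum cells, against 56.8 and 91.5 CPM in Notum-negative epithelium and 183 and 179 CPM in free RNA. Cxcl10, a chemokine gene induced by interferons, had 623 and 402 CPM against 121 and 94.2 CPM. Irf7, the transcription factor gene that amplifies the interferon response, had 13.3 and 17.0 CPM against 33.4 and 56.1 CPM, so the list did not move as a whole. Over Lgr5-bearing cells 6 interferon genes were higher and none lower. None of the 13 MHC class I genes passed 2-fold in either direction.

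Of the 13 BMP pathway genes, 5 were higher, among them Id3, Id2 and Bmp7, and 3 were lower, among them Grem1 and Bmp4, which are known from stroma. Id3, a direct target of BMP signalling, had 852 CPM in KO and 816 CPM in WT Notum cells, against 329 and 354 CPM. Of 14 regenerative and fetal epithelial genes, 6 were lower and 1 higher. Ly6a, the Sca-1 gene that marks repairing colonic epithelium, had 171 and 228 CPM against 801 and 1466 CPM, and Anxa1 had log2 ratios of −1.42 and −1.23. Krt17, a stress keratin gene, was higher with 815 CPM in KO and 696 CPM in WT Notum cells, against 143 and 183 CPM. Krt19 and Krt20 were lower, with log2 ratios of −1.33 and −3.00 in KO and −1.12 and −3.72 in WT. Against Notum-negative cells with Lgr5, the regenerative and fetal list had 1 lower and no higher member. The BMP list had 1 higher and 1 lower member there. Over all genes, 3.62% were higher and 2.36% lower against these cells.

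Notum cells were not uniform. Among 6156 genes with a mean of 0.1 or more UMIs after thinning, the variance over the mean had a median of 1.09 in both libraries, and the 10 most variable genes were Spink4, Lypd8, Wfdc18, Tff3, Pnliprp2, Malat1, S100a9, Cxcl2, Mt4 and S100a6. Of the markers, Clstn2 (4.26 in KO, 4.13 in WT) and Spock2 (3.39 and 3.45) had larger values than Prox1 (1.78 and 2.01) and Nkd1 (1.74 and 1.75). Spink4, a goblet gene, had 50% of its UMIs in 15 KO and 9 WT cells, and up to 1875 UMIs in 1 cell. Pnliprp2 had 50% of its UMIs in 41 KO and 33 WT cells, and Pnliprp1 in 96 and 64, whereas Nkd1 had 50% in 337 and 300. Pnliprp2 RNA was thus held by fewer cells than that of Nkd1.

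Cells with Pnliprp2 at 1000 CPM or more, a limit set after these values were seen, were 112 KO (9.39%) and 110 WT (9.48%) Notum cells, and held 75.01% and 80.3% of all Pnliprp2 UMIs of Notum cells. They were not deeper than the others, with a median of 19800.5 UMIs in KO and 21107 in WT, against 22515 and 23856.5. Scrublet scores barcodes as likely doublets (2 cells in 1 droplet). Removal of the top scores at the expected doublet rate took 3 KO and 5 WT of these cells. It took 72 of the 1081 other Notum cells in KO and 58 of the 1050 in WT. Scrublet's own threshold marked 1 KO and 3 WT barcodes among all past the UMI and mitochondrial limits. The limit cuts through a range: 44 KO and 37 WT cells lay at up to 2000 CPM above it, and 52 and 57 at 500 CPM or more below it. Ptn had 1596 CPM in KO and 2120 CPM in WT cells with high Pnliprp2, against 246 and 480 CPM in the other Notum cells. Mt4 had 2066 and 2743 CPM against 341 and 542 CPM, and Pycr1 304 and 308 CPM against 30.1 and 47.9 CPM. Wnt6, Wnt10a, Sox6, Apcdd1 and Dkk3 were also higher in these cells, by log2 ratios of 1.34 to 2.38 in either library.

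Other genes ran the opposite way. Clstn2 had 113 CPM in KO and 42.0 CPM in WT cells with high Pnliprp2, against 318 and 102 CPM in the other Notum cells. F3, the gene of tissue factor, had 66.9 and 23.4 CPM against 214 and 113 CPM, and Thbs2, the gene of the matrix protein thrombospondin-2, 13.1 and 9.45 CPM against 73.2 and 34.8 CPM. Lgr5 had log2 ratios of −0.43 in KO and 0.052 in WT, and Gsk3b of −0.13 and −0.16. Without the cells with high Pnliprp2, all 20 leading genes of Notum cells, Notum by construction, were still over 2-fold above Notum-negative epithelium in both libraries, with log2 ratios of Pnliprp2 at 1.94 in KO and 1.38 in WT. These genes had been picked for high ratios over the same comparison cells.

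**Figure D4:**
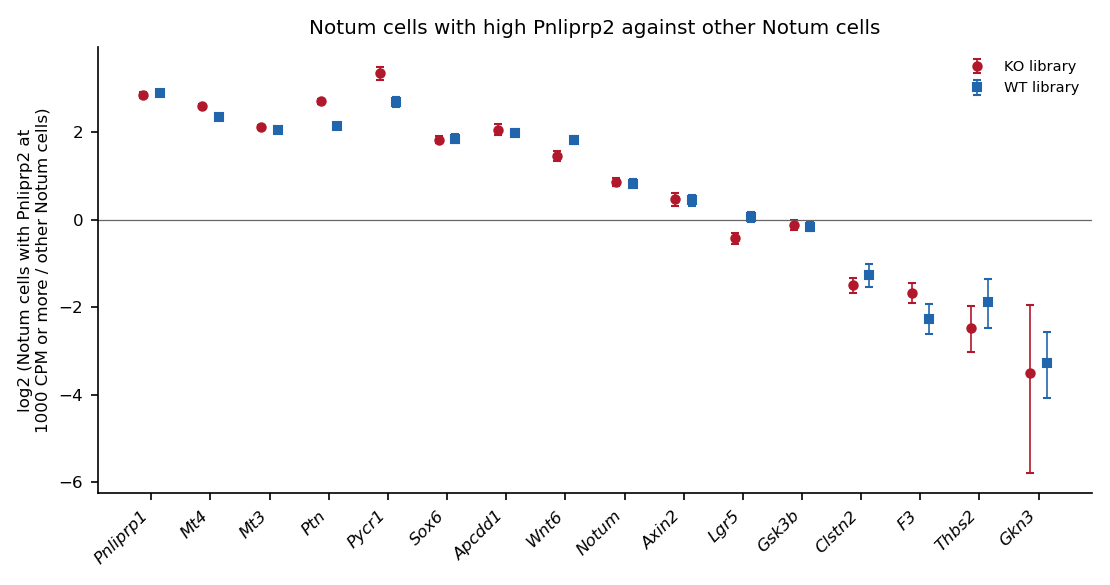
log2 ratio (y axis) of summed CPM in Notum cells with Pnliprp2 at 1000 CPM or more over the other Notum cells, for genes chosen after their values were seen (x axis), circles for the KO and squares for the WT library, with exact 95% counting intervals. Pnliprp1, Mt4, Mt3, Ptn and Pycr1 lie above 2 in both libraries, and Clstn2, F3, Thbs2 and Gkn3 lie below −1.

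Of 8 pairs of genes looked at, some were detected together more often than others. After thinning, Pnliprp2 was detected in 55.0% of KO and 58.2% of WT Notum cells with Pnliprp1, against 16.8% and 18.1% of those without it. Mt4 was detected in 41.9% and 59.8% of those with Mt3, against 18.7% and 29.7%. Clstn2 was detected in 52.7% and 27.5% of Notum cells with Lgr5, against 36.8% and 14.9% of those without it. Lgr5 was detected in 70.3% and 55.4% of those with Pnliprp2, against 67.7% and 53.6%, a small difference. Unc5d was detected in 14.9% of KO and 3.57% of WT Notum cells with Clstn2, against 11.7% and 4.85%, so the direction differed between libraries.

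Between the libraries, Notum cells of the KO tumours carried more RNA of Unc5d, Gpc6, Clstn2 and Col9a3 and less of Alb, Hdac9, Gstm7, Gkn3 and Kcnb2. Of 16285 genes with 20 or more UMIs, 1031 (6.33%) were over 1.5-fold higher in KO and 1383 (8.49%) over 1.5-fold lower. The median log2 ratio was −0.010. Nkd1 (624 CPM in KO, 543 in WT), Spock2 (576 and 474), Prox1 (377 and 360.0) and Axin2 (129.7 and 138) stayed within 1.5-fold, with log2 ratios between −0.089 and 0.28. Notum, at 254 CPM in KO and 216 CPM in WT, had its lowest level per cell set by the rule in both.

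Unc5d, a gene of the UNC5 family of netrin receptors, had 44.9 CPM in KO and 9.31 CPM in WT Notum cells, a log2 ratio of 2.27 (2.09 to 2.45). Gpc6, a glypican gene, had 36.3 and 8.72 CPM (2.06), and Clstn2 302 and 96.5 CPM (1.65, interval 1.59 to 1.71). Col9a3, a collagen gene, had 54.2 and 21.1 CPM (1.36), and R3hdml 203 and 84.4 CPM (1.26). The other genes of this rank were Thbs2, Tmed6, Mia, Ltbp1, F3, Rgs2 and Rgmb, with log2 ratios of 0.96 to 1.09. All 12 genes had positive log2 ratios in Notum-negative epithelium too, 7 of them over 1.5-fold, and 10 were over 1.5-fold higher in the free RNA of the KO library. Clstn2, for example, had a log2 ratio of 0.89 in Notum-negative epithelium and 1.36 in free RNA, read from barcodes with under 100 UMIs.

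The lower genes included Gkn3, a gastrokine gene, Kcnb2, a potassium channel gene, and Hdac9, a deacetylase gene, all 3 from a list of 6 Cadps tumour genes. Every member of this list was over 1.5-fold lower, beside 8.49% of all genes. The list was chosen with earlier results of these data known. The Cadps limit also left out 44 KO and 258 WT barcodes with 3 or more Notum UMIs, so the count is a description only. Kcnb2 had 38.8 CPM in KO and 134 CPM in WT Notum cells, a log2 ratio of −1.78 (−1.87 to −1.69). Gkn3 had 12.6 and 46.1 CPM (−1.87), and Hdac9 7.22 and 31.8 CPM (−2.14). Cadps itself, which the rule limits to under 10 UMIs per cell, had 10.6 and 36.0 CPM. Sox17, an endoderm transcription factor gene, had 46.3 and 130.4 CPM (−1.49), and Stra6, the gene of a retinol transporter, 45.7 and 127 CPM (−1.47). Hspb1, a small heat shock protein gene, had 342 and 1024 CPM (−1.58).

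Gstm7, Upk3a, Gsta3, Fbxo32 and Galnt18 were also among the 12 lowest, with log2 ratios of −1.85 to −1.49. Alb, the albumin gene, had the lowest ratio (−4.12) with 2.59 CPM in KO and 45.1 CPM in WT, but 5 of 1160 WT cells held 50% of its 1537 WT UMIs. Of these 12 genes, 11 were over 1.5-fold lower in Notum-negative epithelium and all 12 in free RNA. Both sets therefore differed beyond Notum cells. Whether free RNA added to the differences in Notum cells was not tested beyond its subtraction, after which the direction held for all 24 genes.

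**Figure D5:**
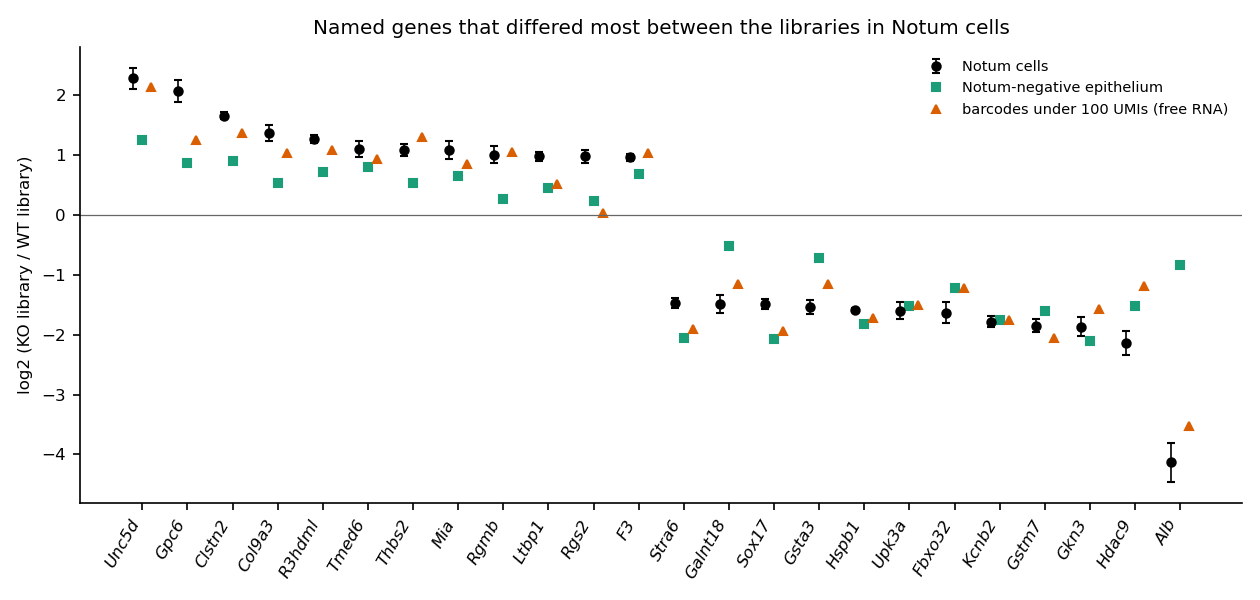
log2 ratio of KO over WT (y axis) for the 12 highest and 12 lowest named genes (x axis) in Notum cells (black, with exact 95% counting intervals), in Notum-negative epithelium (green squares) and in free RNA from barcodes with under 100 UMIs (orange triangles). The 3 measures share a sign for all 24 genes.

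Some lists differed between the libraries together with other cell types or free RNA. Goblet genes were higher in KO for 9 of 12 members (median log2 1.24), and their sum was 1548 CPM in KO and 815 CPM in WT Notum cells, 14988 and 4413 CPM in Notum-negative epithelium and 8412 and 3158 CPM in free RNA. Macrophage markers were lower in KO for 7 of 8 members, with sums of 301 and 640.2 CPM in Notum cells and 2217 and 4125 CPM in free RNA. Fibroblast markers were higher for 6 of 6 members, with sums of 62.0 and 4.38 CPM in Notum cells and 195 and 54.4 CPM in free RNA, and 4 KO cells held 50% of the Col3a1 UMIs. None of these 3 lists is read as expression of Notum cells, and the part that free RNA has in them was not tested.

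Type I interferon genes were over 1.5-fold lower in KO for 6 of 12 members and higher for none (median log2 −0.61). Their sum was 818 CPM in KO and 1082 CPM in WT Notum cells, and 496 and 682 CPM in free RNA. Cxcl10, which is outside this list, was higher in KO (0.63). Of 14 interferon-gamma genes, 5 were over 1.5-fold higher and 1 lower (median log2 0.35). Over all genes, 6.33% were higher and 8.49% lower. Usp18, which encodes a brake on interferon signalling, had 17.5 CPM in KO and 38.4 CPM in WT Notum cells, and Ifit2, an interferon-induced gene of antiviral defence, 88.1 and 144 CPM. Isg15, another member of the type I list, was slightly higher in KO, within 1.5-fold. The type I list had a median of −0.88 in Notum-negative epithelium. MHC class I genes were over 1.5-fold higher for 4 of 13 members, B2m, H2-T23, H2-Q7 and H2-Q6, and lower for none. The shares of all genes were 6.33% and 8.49%. The MHC class I sum was 1174 CPM in KO and 956 CPM in WT Notum cells, and 1542 and 1357 CPM in free RNA. B2m, the shared light chain of MHC class I, had 151 and 88.4 CPM (0.77), and its log2 ratio was 0.46 in Notum-negative epithelium and 0.23 in free RNA. H2-Q6 and H2-Q7 are near-identical copies that reads can hardly tell apart, so their split is uncertain. Of the 20 stem cell genes, 2 were over 1.5-fold higher in KO, Smoc2 (0.64) and Rgmb (1.00), and 1 lower, Olfm4 at under 1 CPM, beside 6.33% and 8.49% of all genes. The median of the stem cell list was 0.020. Lgr5 had a log2 ratio of 0.58 (0.54 to 0.62), just under 1.5-fold. Its log2 ratio was −0.057 in Notum-negative epithelium and 0.50 in free RNA.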

How the data were processed

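Each library was deposited as a 10x matrix of raw UMI counts for every barcode, made with Cell Ranger 4 per the file headers. The genome build mm10 and Seurat are named per the submitters' processing notes, with no role for Seurat. Which annotation release was counted is not stated in the sources used here. Depth was 156641780 UMIs over 2457921 barcodes in KO and 164574326 over 2446729 in WT.

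UMI counts of 32285 genes were summed over the cells of a group and divided by the group's total to give CPM. A log2 ratio has an exact conditional binomial 95% interval and a share a Clopper-Pearson interval, and both cover counting error only. Genes with 20 or more UMIs were called past 2-fold in both libraries, or past 1.5-fold between libraries, and no p-value was computed. The ratio step was tested on simulated data. Barcodes with under 100 UMIs gave the free RNA profile, which made up an estimated 10.7% of KO and 9.16% of WT Notum cell UMIs. Doublets were left in. As an alternative, Scrublet scores (in scanpy 1.11.5) removed 232 KO and 267 WT barcodes at the expected rate, since its own threshold marked 1 and 3. The sums and intervals used scipy 1.17.1 with numpy 2.4.6 under Python 3.11.15, the tables pandas 2.3.3 and the plots matplotlib 3.10.9. Coordinates and promoter windows are on GRCm38.

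The cells, gene lists and comparisons were chosen with earlier results of these data known. Named genes are the markers, the 20 highest and 10 lowest against Notum-negative epithelium and the 12 highest and 12 lowest between libraries, ranked by the interval bound nearest 0 among genes with 50 or more UMIs and 30 CPM or more, and up to 4 called members of a list. Other list members, the groups by Pnliprp2 and the leukocyte barcodes used for background detection were chosen after values were seen. Alternatives changed the Notum, UMI and mitochondrial limits, the comparison cells, doublets, free RNA, scaling and the gene minimum.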

Additional observations from a re-analysis of the deposited data

Results flagged for a closer look

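Krt6a, a keratin gene of stressed and wounded epithelium, differed in direction between the libraries. Its log2 ratio of Notum cells over Notum-negative epithelium was −1.81 in KO and 1.17 in WT. Its level in Notum cells was 4.99 CPM in KO and 5.26 CPM in WT, against 17.5 and 2.34 CPM in Notum-negative epithelium, and the difference between the libraries was not tested.

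Barcodes with 3 or more Notum UMIs also occurred outside the Notum cells described above. The cycling limit left out 148 KO and 170 WT barcodes, the Cadps limit 44 KO and 258 WT, and the secretory limit 21 KO and 35 WT. A barcode past several limits is counted under each. A further 15 KO and 20 WT barcodes had at least 500 but under 5000 UMIs in all.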

How the results depend on the processing

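No paired analysis was possible because each genotype has 1 library, and no p-value was computed. The share of Notum cells in KO and WT was 34.8% and 36.4% with 2 or more Notum UMIs, 17.1% and 14.7% with 5, 33.7% and 33.9% with 10000 or more UMIs per barcode, 20.6% and 20.05% with 2000, 33.6% and 36.9% with more epithelial than leukocyte UMIs, and 35.2% and 37.3% with 0.4% epithelial UMIs, an alternative chosen after seeing the data. It was 29.5% in KO with a mitochondrial limit of 10% and 29.4% in WT without the Cadps, cycling and secretory limits.

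Genes lower in Notum cells numbered 2349 against cells picked by Epcam and Notum alone and 2079 with all genes with a UMI, and higher genes 674 against cells with Notum under 3 UMIs. Comparison cells with Lgr5 or with Fstl4 or Fut9, also chosen after seeing the data, gave 534 higher and 348 lower, and 695 lower. Genes higher in KO numbered 631 with 50 or more UMIs. With all genes with a UMI, 3613 were higher and 3530 lower in KO.

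Against cells with Lgr5, the direction turned for Lgr5 (−0.21 in KO, −0.86 in WT), Zg16 (0.096 in WT), Saa1 (0.15 in KO), Dcn (0.013 in KO), Igfbp7 (0.25 in KO) and the median of endothelial markers (0.31 in KO). With 0.4% epithelial UMIs it turned for Dcn (0.074 in KO, 0.14 in WT) and fibroblast markers (0.23 in KO). Enteroendocrine genes had medians of 0.045 in KO and 0.43 in WT against Fstl4 or Fut9 cells, and absorptive genes −0.040 for KO over WT after free RNA was subtracted. The causes were not tested. Counting error limits genes of few UMIs.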
